A study of Caenorhabditis elegans with 12 samples.

Results

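Transcripts of 35 genes of synaptic vesicle release, recycling and transport were followed in whole Caenorhabditis elegans at day 10. The genes were chosen by name, as the rows of the count table whose WormBase gene identifier carries one of 35 symbols, and all 35 were found among the 46739 genes listed. The 12 libraries cover 4 genotypes in triplicate, all on the N2 background and grown at the same temperature. N2 served as wild type, daf-2 lacks normal function of the insulin/IGF-1 receptor, spr-4;spr-3 (called the spr double below) carries mutations in a pair of zinc finger genes likened to the vertebrate neuronal repressor REST, and spr-4;spr-3;daf-2 (called the triple strain) carries all of these. The labels name no alleles, and every library was made from a pool of worms.

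Neurons release transmitter when vesicles fuse with the membrane of the active zone. Syntaxin and SNAP-25 on the membrane and synaptobrevin on the vesicle zip together, UNC-18 and UNC-13 prepare them, and synaptotagmin makes fusion depend on calcium. Scaffolds of the active zone hold vesicles beside calcium channels, clathrin adaptors, dynamin and synaptojanin retrieve the membrane, and kinesins carry vesicle precursors and other cargo down the axon. Mutations in many of these genes make worms uncoordinated (unc), resistant to inhibitors of cholinesterase (ric) or disordered in synapse position (syd). Several of the proteins, such as dynamin, kinesin-1 and Eps15, also work outside neurons.

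Library totals ran from 11892808 counts (daf-2 replicate 2) to 46493665 (daf-2 replicate 3). The 35 genes together held 14589 to 52220 counts per library, or 1021.4 to 1235.8 CPM (the library total, corrected for composition with a TMM factor, set the scale). Replicate 2 of the spr double stood apart from its partners: counts differed from theirs by a chi-square per degree of freedom of 143 and 162, against 21.6 to 65.6 for all other replicate pairs. Values without that library are given below for the calls that use it and for differences that pass the threshold once it is left out. In N2 replicate 2, 27 of the 34 genes tested below lay above their genotype mean (median deviation 0.13 on the log2 scale, against -0.03 over all genes). In triple strain replicate 2, 11 of them did (-0.13, against 0.03). Marker genes of neurons that are not among the 35 summed to 638.2 to 879.6 CPM, with 14 of 14 detected in every library. Those of muscle summed to 6896 to 7154 CPM in N2, 4791 to 5984 in daf-2 and 8703 to 9364 in the triple strain. In replicates 1, 2 and 3 of the spr double they summed to 3152, 5878 and 2888 CPM. Intestinal markers summed to 26930 to 36690 CPM in N2, 14910 to 22930 in daf-2 and 19190 to 20960 in the triple strain. The same spr double replicates gave 6024, 19410 and 8956 CPM. In both sums spr double replicate 2 was nearer to the other genotypes than its partners were. Its TMM factor was 1.005, against 1.207 and 1.181 in its partners and 0.846 to 1.052 in the other genotypes. Which of the 3 libraries is atypical was not tested. Most of the intestinal sum came from vit-2 and vit-6 (means of 12200 and 6700 CPM over all libraries), and most of the muscle sum from act-4 (4180). These sums therefore follow a few genes and are no measure of tissue content. In RNA from whole worms, fewer cells of a type and less RNA per cell cannot be told apart.

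Of the 35 genes, 34 had enough counts to be tested. The exception was cpx-2, a complexin, with 31 counts in all 12 libraries. It had 0, 1 and 4 counts in the N2 libraries, 2, 0 and 9 in those of daf-2, 0, 0 and 0 in the spr double and 7, 8 and 0 in the triple strain, too few to compare genotypes. The other complexin gene, cpx-1, held 1079 counts.

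Per kilobase of exon, the synaptobrevin gene snb-1 stood far above the rest, with a mean over all libraries of 166 CPM per kb. It was followed by the kinesin-1 heavy chain gene unc-116 (47.2), the dynamin gene dyn-1 (31.1), the endophilin gene unc-57 (29.4) and the Munc18 gene unc-18 (19.6). The other membrane partners of synaptobrevin were lower, with 9.73 CPM per kb for the syntaxin gene unc-64 and 7.71 for the SNAP-25 gene ric-4. At the low end were neuroligin (nlg-1, 0.765), the very large active zone gene cla-1 (0.895) and synaptogyrin (sng-1, 0.91). The tested genes thus spanned a 217-fold range per length, with a median of 5.14 CPM per kb, while the highest genotype mean of any of them exceeded its lowest by 1.14-fold (unc-11) to 3-fold (nrx-1). Length here was the union of all annotated exons, 27088 bases for cla-1, so genes read mainly from shorter transcripts are placed too low. Without length scaling cla-1 had a mean of 24.2 CPM. Evenness of coverage along long transcripts was not tested.

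**Figure D1:**
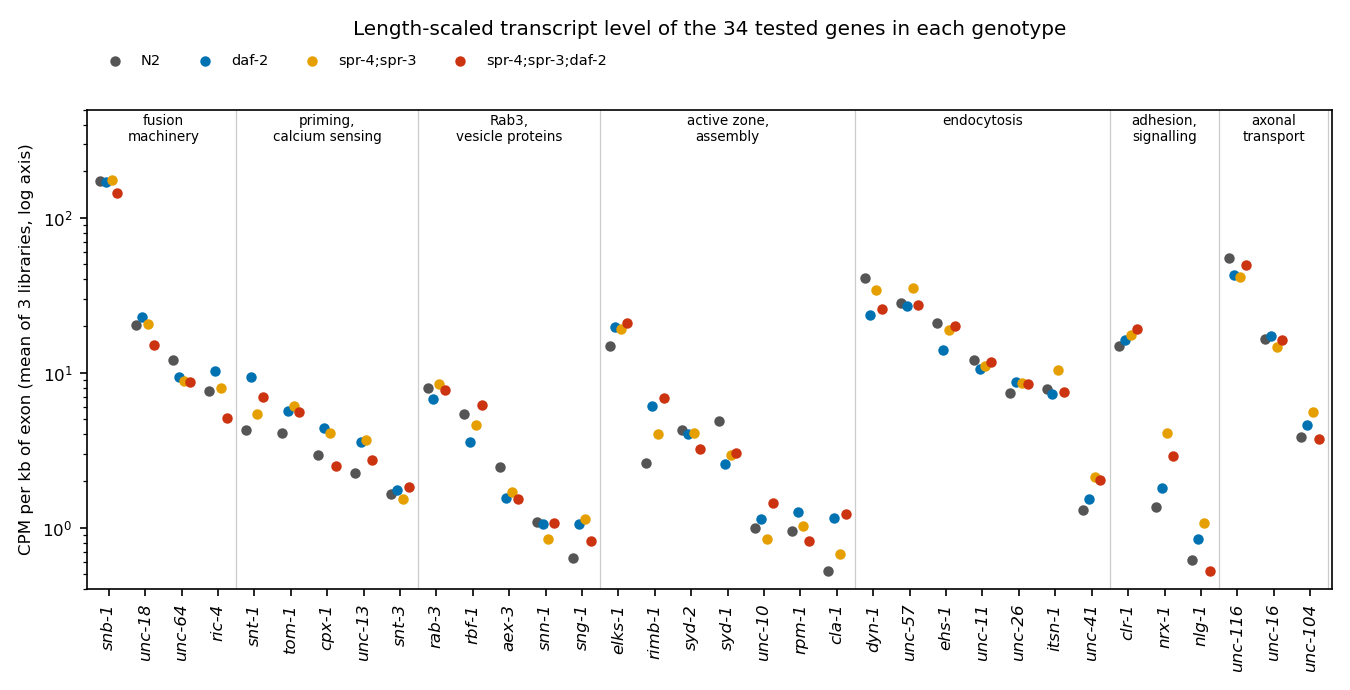
Transcript level per kb of exon (vertical log axis, CPM per kb) of the 34 tested genes, grouped by role, with a point for the mean of 3 libraries in each genotype. Differences between genes (snb-1 at 166 against nlg-1 at 0.765) are far larger than differences between genotypes, which are widest for nrx-1.

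Across the 6 comparisons, 14 of the 34 tested genes passed the threshold (adjusted p under 0.05, edgeR quasi-likelihood test, adjusted over all 18342 genes tested) in at least 1, and 20 passed in none. In daf-2 against N2, 5 genes were higher and 3 lower, 23.5% of the 34, where 20.6% of all tested genes passed (9.58% higher and 11% lower). In the triple strain against N2, 4 were higher and 4 lower (23.5%), where 22.2% of all genes passed (10.8% higher and 11.3% lower). Loss of the spr genes alone, the spr double against N2, gave 3 higher and 1 lower (11.8%), where 11.7% of all genes passed (5.07% higher and 6.61% lower). Their loss with daf-2 also mutated, the triple strain against daf-2, gave 1 higher and 2 lower (8.82%), where 13.4% of all genes passed (6.76% higher and 6.65% lower). Between the triple strain and the spr double 2 genes were higher in the triple strain and 3 lower (14.7%), where 14.9% of all genes passed (7.02% higher and 7.92% lower). The difference between the spr effects in the daf-2 and N2 backgrounds, the interaction, passed for 0 genes in the positive and 3 in the negative direction (8.82%), where 8.32% of all genes passed (4.89% positive and 3.43% negative). The shares were near those of all genes in 5 of the 6 comparisons and lower in the triple strain against daf-2, where 3 genes make the count. Without replicate 2 of the spr double, 2 genes were higher and 3 lower in the spr double than in N2, 1 was higher and 5 lower in the triple strain than in the spr double, and the interaction passed for 3 positive and 4 negative genes. Calls over all genes also became more numerous in that fit, with 1181 higher and 1991 lower, 1736 and 1613, and 1576 and 958 in the same order. Median log2 fold changes of the 34 genes were 0.16, -0.04, 0.10, 0.01 and -0.10 in the pairwise comparisons in the order given, and -0.28 for the interaction, against 0.06, 0.04, 0.04, -0.01, 0.01 and -0.05 over all tested genes. Without N2 replicate 2 the medians of the 34 genes against N2 were 0.22 in daf-2, 0.18 in the spr double and 0.03 in the triple strain. For the interaction the median was then -0.37. Over all tested genes the medians in that fit were 0.05, 0.03, 0.03 and -0.04. The comparisons share libraries, so their counts are not independent of each other.

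Members whose libraries did not overlap between the genotypes compared numbered 7 higher and 6 lower in daf-2 against N2, where 39.9% of all tested genes did not overlap (20.4% higher and 19.5% lower). They numbered 7 and 5 for the triple strain against N2 (38.9% of all genes, 19.8% higher and 19.1% lower), and 5 and 2 for the spr double against N2 (28.5%, 14.1% and 14.4%). For the triple strain against daf-2 they numbered 4 and 5 (36%, 17.9% and 18.1%), and for the triple strain against the spr double 2 and 8 (30.7%, 15.6% and 15.1%). The shares of the 34 genes, in the same order, were 38.2%, 35.3%, 20.6%, 26.5% and 29.4%, none of them above that of all genes.

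With library totals alone as the scale, without TMM factors, the median of all genes moved to 0.28 in daf-2 against N2, 0.19 in the triple strain against N2, 0.40 in the spr double against N2, -0.08 in the triple strain against daf-2, -0.20 in the triple strain against the spr double and -0.48 for the interaction. The counts of higher and lower genes then became 6 and 2, 7 and 1, 12 and 0, 1 and 2, 0 and 8, and 0 and 13. With the size factors of DESeq2 they were 3 and 3, 4 and 4, 2 and 3, 1 and 2, 2 and 2, and 0 and 2. Over all tested genes that fit gave 1687 and 2085, 1869 and 2146, and 826 and 1307 against N2, in the same order. It gave 1226 and 1224, 1323 and 1360, and 945 and 557 for the last 3. Of the 31 calls, 0 changed direction under any of the 19 alternatives, and 12 stayed past the threshold under every alternative run for them. Those 12 belong to rimb-1, cla-1, snt-1, nrx-1, dyn-1, syd-1, unc-18 and ric-4. The other 19 were each lost when some library was left out, as given beside the gene.

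**Figure D2:**
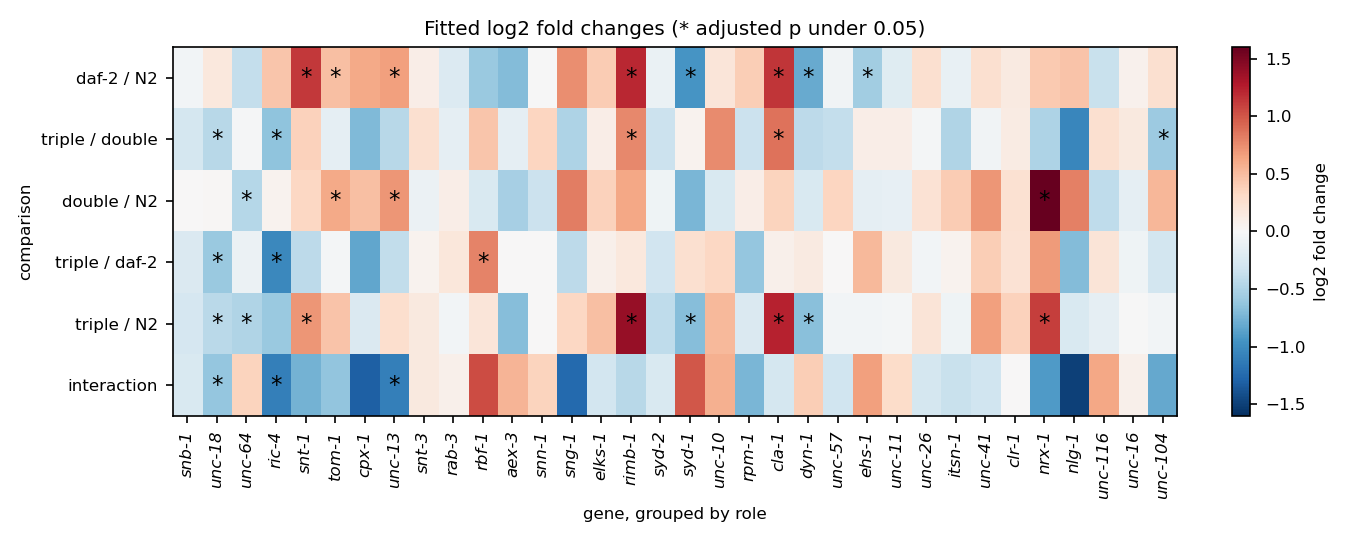
Fitted log2 fold change (colour) of the 34 tested genes (columns, grouped by role) in the 6 comparisons (rows), where double is spr-4;spr-3, triple is spr-4;spr-3;daf-2 and a star marks an adjusted p under 0.05. Stars for rimb-1 and cla-1 stand in the 3 rows that set a daf-2 strain against a strain with daf-2 intact, and those for ric-4 and unc-18 in rows that set the triple strain against another genotype and in the interaction.

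Among the active zone and synapse assembly genes, rimb-1 and cla-1 were higher in both daf-2 strains, and syd-1 was lower in both daf-2 strains than in N2. The fall of syd-1 was not limited to them, as the spr double stood at -0.73 ± 0.23 against N2, just short of the threshold (adjusted p = 0.051). The gene rimb-1 (chromosome III, 1788333 to 1807147 of WBcel235) encodes the RIM-binding protein, which links calcium channels to release sites. It gave 8.85, 14 and 11.4 CPM in the N2 libraries, 23.8, 26.7 and 28.8 in those of daf-2, 13.6, 21.7 and 17.4 in the spr double and 26.1, 28.7 and 34.8 in the triple strain. Every library of the 2 daf-2 strains lay above every library of the strains with daf-2 intact. The log2 fold change was 1.21 ± 0.20 (SE) for daf-2 over N2 (adjusted p = 0.00043) and 1.39 ± 0.20 for the triple strain over N2 (adjusted p = 0.00012).

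Against the spr double, rimb-1 rose in the triple strain by 0.77 ± 0.20 (adjusted p = 0.016, and 0.0048 without replicate 2 of the spr double). That call was lost without replicate 1 or 3 of the spr double (adjusted p = 0.077 and 0.06), without replicate 3 of the triple strain (0.078) or with library totals as the scale (0.053). In the spr double itself rimb-1 was at 0.62 ± 0.20 against N2, just short of the threshold (adjusted p = 0.056). It passes there with DESeq2 (0.045) and without N2 replicate 2 (0.032) or spr double replicate 1 (0.043).

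The gene cla-1 (chromosome IV, 7588931 to 7628238) encodes clarinet, a very large active zone protein related to Piccolo and RIM, and has 27088 bases of exon in the annotation. Its values were 12.3, 19.6 and 10.5 CPM in the N2 libraries, 31.1, 37.1 and 26 in those of daf-2, 22.9, 18 and 13.7 in the spr double and 36.5, 21.9 and 41.1 in the triple strain. All daf-2 and triple strain libraries exceeded all N2 libraries, while the triple strain and the spr double overlapped. It rose by 1.14 ± 0.27 in daf-2 (adjusted p = 0.0059) and by 1.23 ± 0.27 in the triple strain (adjusted p = 0.0033), both against N2. Against the spr double the triple strain was 0.87 ± 0.26 higher (adjusted p = 0.036), a call lost without spr double replicate 2 (0.06) or 3 (0.16), triple strain replicate 1 (0.1) or 3 (0.15), with library totals (0.12) or with only those genotypes in the fit (0.053). Between the spr double and N2 the difference was 0.36 ± 0.26 (adjusted p = 0.41).

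The gene syd-1 (chromosome II, 7585695 to 7594912), whose RhoGAP domain protein helps place presynaptic sites, went the other way. It gave 19.2, 13.5 and 16.6 CPM in the N2 libraries, 8.25, 10.1 and 7.4 in those of daf-2, 8.28, 11.3 and 10.1 in the spr double and 13.7, 9.45 and 7.61 in the triple strain. The N2 libraries were above all daf-2 and spr double libraries and overlapped with 1 of the triple strain, replicate 1. The fall was -0.95 ± 0.23 in daf-2 (adjusted p = 0.0086) and -0.68 ± 0.23 in the triple strain (adjusted p = 0.044). The latter was lost without N2 replicate 1 (0.16) or 3 (0.095), daf-2 replicate 1 (0.056) or triple strain replicate 2 (0.11) or 3 (0.18), with library totals (0.11) and with only those genotypes in the fit (0.062). In the spr double it was at -0.73 ± 0.23 (adjusted p = 0.051), which passes with DESeq2 (0.019) and without spr double replicate 2 (0.032).

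The other 4 genes of this group passed in no comparison. The ELKS scaffold gene elks-1 was nearest, at 0.48 ± 0.17 in the triple strain against N2 (adjusted p = 0.054), with 38.4, 53.9 and 35 CPM in N2 and 61.1, 61.7 and 55.5 in the triple strain. These libraries did not overlap, and without N2 replicate 2, the highest of its group, the adjusted p was 0.0093. The RIM gene unc-10 ranged from 3.15 to 7.48 CPM over all libraries and was 0.76 ± 0.29 higher in the triple strain than in the spr double (adjusted p = 0.09). The liprin-alpha gene syd-2 (10.5 to 21.5 CPM) and rpm-1 (6.04 to 19.6 CPM), the ubiquitin ligase that limits the DLK-1 kinase, had adjusted p values of 0.12 or more.

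**Figure D3:**
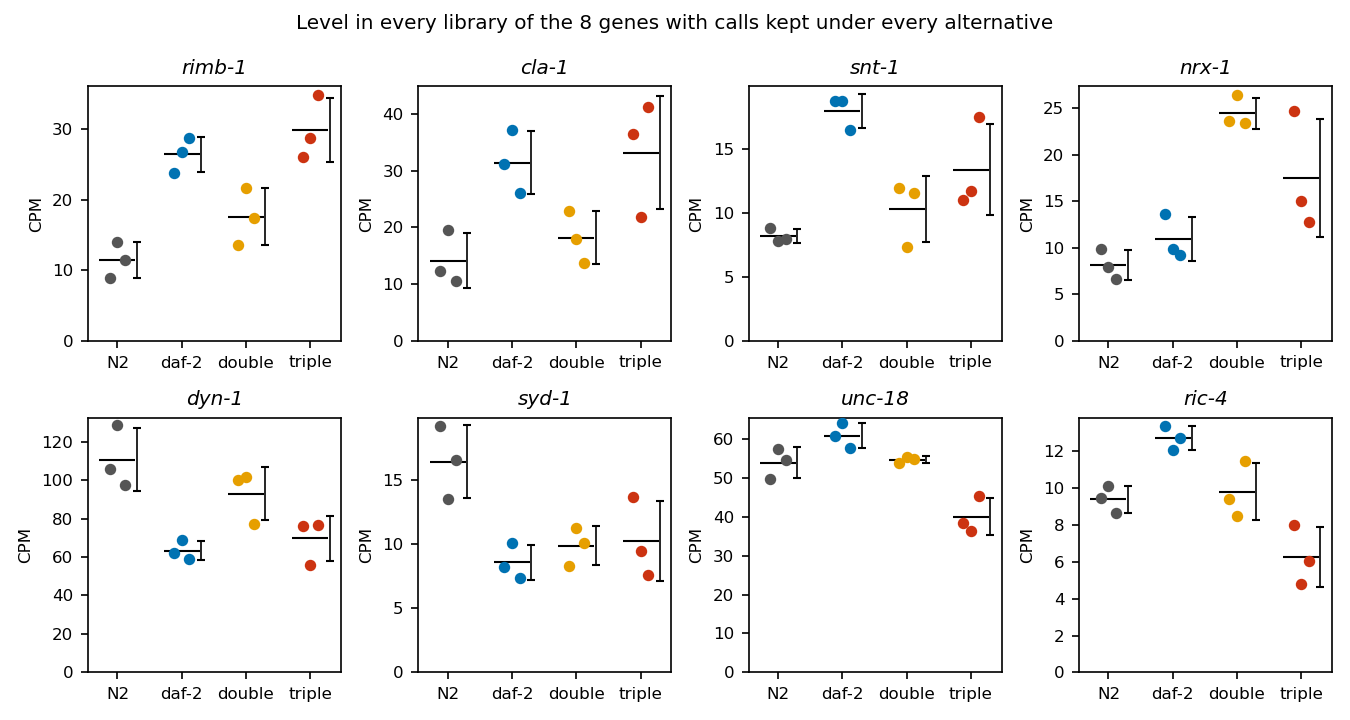
CPM in each library (points), mean (horizontal line) and SD (bar, n = 3) of 8 genes in N2, daf-2, the spr double (spr-4;spr-3) and the triple strain (spr-4;spr-3;daf-2). For rimb-1 the daf-2 and triple strain points (23.8 to 34.8) lie above all N2 and spr double points (8.85 to 21.7), for nrx-1 the spr double points (23.4 to 26.4) lie above N2, and for unc-18 the triple strain points (36.3 to 45.3) lie below all others.

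In the fusion machinery, unc-18 and ric-4 were lowest in the triple strain. The gene unc-18 (chromosome X, 7682896 to 7686037) encodes Munc18, which binds syntaxin and is needed for fusion. It gave 49.6, 57.4 and 54.5 CPM in the N2 libraries, 60.7, 64 and 57.5 in those of daf-2, 53.8, 55.4 and 54.7 in the spr double and 38.4, 36.3 and 45.3 in the triple strain. No library of another genotype was as low as the highest of the triple strain. Besides the triple strain's fall against daf-2 (-0.60 ± 0.12, adjusted p = 0.0044), unc-18 was lower than in the spr double by -0.45 ± 0.12 (adjusted p = 0.022, and 0.044 without spr double replicate 2) and than in N2 by -0.43 ± 0.12 (adjusted p = 0.02). The call against the spr double was lost without spr double replicate 3 (0.058) or triple strain replicate 1 (0.074) or 2 (0.082), with only those genotypes in the fit (0.07) and with no filter on low counts (0.062). That against N2 was lost without N2 replicate 2 (0.064) or 3 (0.053) or triple strain replicate 1 (0.071) or 2 (0.075), with library totals (0.19) and with no filter (0.063).

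The gene ric-4 (chromosome V, 10261131 to 10270314) encodes SNAP-25. Its values were 9.49, 10.1 and 8.63 CPM in the N2 libraries, 13.4, 12.1 and 12.7 in those of daf-2, 9.43, 8.49 and 11.5 in the spr double and 7.99, 4.78 and 6.03 in the triple strain. The daf-2 libraries were the highest and the triple strain libraries the lowest, with no overlap with any other genotype in either case. The fall from daf-2 to the triple strain was -1.03 ± 0.21 (0.491-fold, adjusted p = 0.0049). Against the spr double it was -0.65 ± 0.21 (adjusted p = 0.049, and 0.037 without spr double replicate 2), a call at the edge that was lost without any N2 or daf-2 library, spr double replicate 1 or 3 or triple strain replicate 2 or 3 (adjusted p = 0.055 to 0.19), and with DESeq2 size factors (0.054), no filter (0.07), the last digit of the library name, whose meaning the labels leave unsaid, as a term (0.073) or only those genotypes in the fit (0.14). Against N2 the triple strain was at -0.59 ± 0.21 (adjusted p = 0.057, 0.03 with DESeq2 and 0.048 without spr double replicate 2), and daf-2 at 0.44 ± 0.21 (adjusted p = 0.17).

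The syntaxin gene unc-64 (chromosome III, 13277258 to 13283887) was highest in N2, with 30.2, 31.8 and 31.3 CPM, against 21, 26.4 and 24.5 in daf-2, 22.1, 22 and 23.6 in the spr double and 20.1, 23.4 and 23.5 in the triple strain. Every N2 library exceeded every mutant library. The fall was -0.46 ± 0.14 in the spr double (adjusted p = 0.04, and 0.047 without its replicate 2) and -0.48 ± 0.14 in the triple strain (adjusted p = 0.02), and in daf-2 it stood at -0.38 ± 0.14 (adjusted p = 0.064, and 0.029 with DESeq2). The call in the spr double was lost without any N2 library (0.084, 0.079 and 0.1), without spr double replicate 1 (0.1) or 3 (0.075), with no filter (0.11) and with only those genotypes in the fit (0.094). With library totals it came to -0.10 (adjusted p = 0.68). That in the triple strain was lost without N2 replicate 3 (0.051) or triple strain replicate 1 (0.086), with no filter (0.059) and with library totals (0.16). The gene shares 64 exon bases with set-25 on the other strand.

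The synaptobrevin gene snb-1 varied little. It gave 150.9, 135.1 and 136 CPM in the N2 libraries, 137.7, 121.6 and 150.3 in those of daf-2, 150.8, 130 and 144.7 in the spr double and 116.3, 126.8 and 107.3 in the triple strain. The triple strain libraries lay below all of N2 and of the spr double, by -0.27 ± 0.13 and -0.28 ± 0.13, and neither difference passed (adjusted p = 0.14 and 0.15). All 4 fusion genes thus had negative fold changes in the triple strain against each other genotype (-1.03 to -0.10 against daf-2, -0.65 to -0.02 against the spr double and -0.59 to -0.27 against N2), also with the other scalings, and 2 of the 4 passed in each of these comparisons. Of all tested genes, 6.65%, 7.92% and 11.3% were called lower in the same order. Their median log2 fold changes were -0.01, 0.01 and 0.04, so a negative sign alone was common among them. The comparisons share the triple strain libraries, so they do not repeat each other independently. Against the spr double, unc-64 hardly differed (-0.02 ± 0.14).

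Of the 6 genes for priming and calcium sensing, 5 were tested, and 3 of them were higher in daf-2 than in N2. The synaptotagmin gene snt-1 (chromosome II, 6810963 to 6816433), the main calcium sensor for release, gave 8.85, 7.8 and 7.99 CPM in the N2 libraries, 18.8, 18.8 and 16.5 in those of daf-2, 12, 7.38 and 11.6 in the spr double and 11, 11.7 and 17.5 in the triple strain. The daf-2 libraries were above all those of N2 and the spr double, and spr double replicate 2 lay below all of N2. Against N2, snt-1 rose by 1.13 ± 0.22 in daf-2 (2.19-fold, adjusted p = 0.0016) and by 0.71 ± 0.22 in the triple strain (adjusted p = 0.03). The latter rests in part on triple strain replicate 3, without which it was 0.47 (adjusted p = 0.18), and was also lost without any N2 library (0.054, 0.08 and 0.08).

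The gene unc-13 (chromosome I, 7422785 to 7454116) encodes Munc13, the protein that opens syntaxin and primes vesicles. Its values were 13.5, 20 and 12.9 CPM in the N2 libraries, 23.3, 30.7 and 19.7 in those of daf-2, 28.1, 22 and 25.7 in the spr double and 23, 19.2 and 13.7 in the triple strain. Each mutation set alone stood above N2, with an overlap between N2 replicate 2 and daf-2 replicate 3, and the triple strain reached down into the range of N2. The rises were 0.66 ± 0.22 in daf-2 (adjusted p = 0.047) and 0.71 ± 0.22 in the spr double (adjusted p = 0.049, and 0.042 without its replicate 2), against 0.27 ± 0.22 in the triple strain (adjusted p = 0.44).

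Both unc-13 calls are close to the threshold. The one in daf-2 was lost without N2 replicate 1 or 3, daf-2 replicate 1 or 2, any spr double library or triple strain replicate 2 (adjusted p = 0.051 to 0.2), with DESeq2 size factors (0.055) and with the digit of the library name as a term (0.23). The one in the spr double was lost without N2 replicate 1 or 3, daf-2 replicate 1 or 3, spr double replicate 1 or 3 or triple strain replicate 2 (0.058 to 0.18), with DESeq2 size factors (0.062), the digit as a term (0.06) or only those genotypes in the fit (0.069).

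The tomosyn gene tom-1 (chromosome I, 5546118 to 5561689) encodes a protein that holds back priming by competing for syntaxin and SNAP-25. The gene was also higher in daf-2 and the spr double than in N2. Unlike unc-13, it did not reach down into the range of N2 in the triple strain. It gave 18.6, 18.6 and 17.2 CPM in the N2 libraries, 26.1, 26.6 and 23.5 in those of daf-2, 20.6, 28.6 and 32.9 in the spr double and 23.1, 25.2 and 26 in the triple strain. Every mutant library exceeded every N2 library. The rises were 0.48 ± 0.16 in daf-2 (adjusted p = 0.047), 0.60 ± 0.16 in the spr double (adjusted p = 0.028) and 0.45 ± 0.16 in the triple strain (adjusted p = 0.058, short of the threshold). The call in daf-2 was lost without any N2, daf-2 or triple strain library or spr double replicate 2 (0.054 to 0.13), and with DESeq2 size factors (0.054) or no filter (0.075). That in the spr double was lost without N2 replicate 1 (0.071) or 3 (0.097), spr double replicate 2 (0.056) or 3 (0.15), and with only those genotypes in the fit (0.093).

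The complexin gene cpx-1, whose small protein clamps and assists the fusion complex, was low at 1.61 to 4.14 CPM. Its triple strain libraries (1.61, 1.79 and 2.58 CPM) lay below all those of daf-2 (4.14, 2.74 and 3.74) and of the spr double (3.46, 2.75 and 3.61), yet no comparison passed (-0.83 ± 0.33 against daf-2, adjusted p = 0.11). The second synaptotagmin gene, snt-3, ranged from 1.7 to 3.89 CPM with log2 fold changes from -0.10 to 0.25 in the pairwise comparisons. In daf-2 against N2 all 5 tested genes of this group had positive fold changes (0.10 to 1.13), under each of the scalings tried. Of all tested genes 9.58% were called higher there, and their median was 0.06, or 0.28 with library totals. The value of snt-3 was 0.10 ± 0.38. The calls of unc-13 and tom-1 were lost under 10 and 13 of 19 alternatives.

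Of the Rab3 and vesicle protein genes, 1 of 5 passed, in 1 comparison. The rabphilin gene rbf-1 (chromosome III, 6675760 to 6703998), encoding an effector of RAB-3, gave 20.5, 24.3 and 24.3 CPM in the N2 libraries, 19.6, 13.8 and 12.2 in those of daf-2, 16.9, 24 and 17.2 in the spr double and 26.1, 19 and 33.9 in the triple strain. It was 0.79 ± 0.23 higher in the triple strain than in daf-2 (adjusted p = 0.028), although triple strain replicate 2 fell below daf-2 replicate 1. The call was lost without daf-2 replicate 2 (0.098) or 3 (0.14) or triple strain replicate 1 (0.065) or 3 (0.15), and with the digit of the library name as a term (0.065). In daf-2 it was -0.60 ± 0.23 against N2 (adjusted p = 0.071), with no overlap between libraries. The gene shares 11 exon bases with isw-1 on the other strand.

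The gene rab-3 itself, the GTPase of synaptic vesicles, ranged from 7.41 to 14.7 CPM, and its pairwise log2 fold changes from -0.22 to 0.18 (adjusted p = 0.58 or more). The exchange factor gene aex-3, which activates RAB-3, gave 7.35, 15.4 and 13.6 CPM in N2 and 5.15 to 11.1 in the mutants, with -0.69 ± 0.33 in daf-2 (adjusted p = 0.16) and -0.68 ± 0.33 in the triple strain (adjusted p = 0.15). The synapsin gene snn-1 (1.13 to 3.64 CPM) and sng-1 (0.338 to 1.93 CPM) were the least precise of the tested genes, with standard errors of 0.42 to 0.43 and 0.67 to 0.68 in the pairwise comparisons.

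Among the 7 endocytosis genes, dyn-1 was lower in both daf-2 strains than in N2, and ehs-1 was lower in daf-2 than in N2. The dynamin gene dyn-1 (chromosome X, 15568890 to 15573021), whose GTPase cuts vesicles from the membrane in all tissues, gave 105.7, 128.9 and 97.4 CPM in the N2 libraries, 62.2, 68.7 and 59.2 in those of daf-2, 99.9, 101.8 and 77.1 in the spr double and 76.1, 56 and 76.9 in the triple strain. The libraries of daf-2 and the triple strain were all below those of N2 and of the spr double, though the spr double's replicate 3 exceeded the highest triple strain library by little. The fall against N2 was -0.81 ± 0.16 in daf-2 (0.572-fold, adjusted p = 0.0016) and -0.67 ± 0.16 in the triple strain (0.63-fold, adjusted p = 0.0059). It did not pass in the spr double against N2 (-0.25 ± 0.16, adjusted p = 0.33) or in the triple strain against the spr double (-0.42 ± 0.16, adjusted p = 0.088).

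The gene ehs-1 (chromosome II, 5820712 to 5823862) encodes Eps15, a clathrin coat adaptor. It gave 54.1, 67.2 and 47.4 CPM in the N2 libraries, 33.4, 43.5 and 37.6 in those of daf-2, 59.1, 44.9 and 48.7 in the spr double and 65.7, 54.4 and 43.6 in the triple strain. The daf-2 libraries were the lowest, without overlap with any other genotype, although the highest of them (43.5) and the lowest of the triple strain (43.6) nearly met. The difference from N2 was -0.56 ± 0.18 (adjusted p = 0.031), lost without N2 replicate 1 (0.058) or 2 (0.14), daf-2 replicate 1 (0.13) or 3 (0.085) or with library totals (0.25). The triple strain stood 0.52 ± 0.18 above daf-2 (adjusted p = 0.062, and 0.047 with DESeq2). Of 14 germline, oocyte and embryo markers 8 were lower and 1 higher in daf-2 than in N2, and 7 were higher and 0 lower in the triple strain than in daf-2. Their sum was 2955 to 3336 CPM in daf-2 and 4443 to 6748 in the other libraries, and their part in the pattern of ehs-1 was not tested.

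The other 5 endocytosis genes passed in no comparison. The AP180 adaptor gene unc-11 was steady at 25.9 to 38.4 CPM, with pairwise log2 fold changes of -0.19 to 0.16. The synaptojanin gene unc-26 ranged from 20.3 to 38.5 CPM, with pairwise values of -0.05 to 0.25. The endophilin gene unc-57 (41.7 to 69.2 CPM), the intersectin gene itsn-1 (21.4 to 42.8) and the stonin gene unc-41 (4.08 to 12.5) had their widest differences between the spr double and either N2 or the triple strain. Nearest to the threshold was itsn-1 in the triple strain against the spr double, at -0.48 ± 0.17 (adjusted p = 0.067, and 0.025 without spr double replicate 2). In the same comparison unc-57 was at -0.38 ± 0.15 (adjusted p = 0.091, and 0.029 without that library). In unc-41, N2 replicate 2 (10.7 CPM) lay far above replicates 1 and 3 (6.11 and 4.08). Without it the adjusted p went from 0.11 to 0.012 in the spr double and from 0.12 to 0.0076 in the triple strain, both against N2.

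The widest difference of all was in neurexin. The gene nrx-1 (chromosome V, 10825011 to 10846703) encodes the presynaptic adhesion protein that binds neuroligin across the cleft, and the annotation lists 13 transcripts for it. It gave 9.9, 7.9 and 6.66 CPM in the N2 libraries, 13.6, 9.9 and 9.22 in those of daf-2, 23.6, 26.4 and 23.4 in the spr double and 24.7, 15 and 12.8 in the triple strain. The spr double libraries agreed closely and lay above all libraries of N2 and daf-2, and the triple strain spread from just under daf-2 replicate 1 to the level of the spr double. The spr double had 3-fold the level of N2 (log2 fold change 1.59 ± 0.24, adjusted p = 0.00085, and 1.50 with adjusted p = 0.0015 without spr double replicate 2). The triple strain had 2.14-fold the level of N2 (1.10 ± 0.24, adjusted p = 0.0034). Loss of the spr genes in daf-2 gave 0.68 ± 0.24 (adjusted p = 0.07), which passed with DESeq2 (0.047) and without triple strain replicate 3 (0.039), and daf-2 stood at 0.42 ± 0.24 against N2 (adjusted p = 0.25). The triple strain was at -0.49 ± 0.23 against the spr double (adjusted p = 0.18), and at -0.82 without its replicate 1 (adjusted p = 0.03). Counts per gene do not tell the long forms of neurexin from the short.

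Its partner neuroligin, nlg-1, was counted at low level, with 1.46, 2.69 and 2.14 CPM in the N2 libraries, 3.14, 2.98 and 2.58 in those of daf-2, 2.76, 2.75 and 5.46 in the spr double and 1.98, 1.97 and 1.41 in the triple strain. The triple strain libraries were below all those of daf-2 and the spr double, and spr double replicate 3 was about double its partners. No comparison passed, the nearest being the triple strain against the spr double (-1.04 ± 0.37, adjusted p = 0.069, 0.039 with DESeq2 and 0.048 without spr double replicate 2). The receptor tyrosine phosphatase gene clr-1, known as a brake on fibroblast growth factor receptor signalling, ranged from 64.2 to 108.3 CPM and was highest in the triple strain (0.37 ± 0.15 against N2, adjusted p = 0.078).

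Of the 3 axonal transport genes, unc-104 passed in 1 comparison. It encodes the kinesin-3 motor that carries synaptic vesicle precursors, and lies at 6994987 to 7010625 of chromosome II. It gave 16.2, 22.6 and 24.9 CPM in the N2 libraries, 24.7, 25.8 and 25 in those of daf-2, 34.6, 32.8 and 24.6 in the spr double and 22.3, 17.3 and 22.1 in the triple strain. The triple strain libraries were all below those of the spr double (-0.58 ± 0.18, adjusted p = 0.041) and of daf-2 (-0.29 ± 0.18, adjusted p = 0.33). The call was lost without any daf-2 or triple strain library, spr double replicate 1 or 2 (adjusted p = 0.051 to 0.15, and 0.093 without spr double replicate 2), with the digit of the library name as a term (0.069) and with only those genotypes in the fit (0.072). The spr double stood at 0.53 ± 0.18 above N2 (adjusted p = 0.067).

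The kinesin-1 heavy chain gene unc-116 gave 146, 187.7 and 189.1 CPM in the N2 libraries, 136.8, 135.1 and 136 in those of daf-2, 125.7, 147.6 and 119.1 in the spr double and 151.3, 145.2 and 174.1 in the triple strain. All daf-2 libraries were below N2 (-0.36 ± 0.14, adjusted p = 0.074), and the spr double was at -0.41 ± 0.14 (adjusted p = 0.058). Both passed with DESeq2 (0.043 and 0.019), without N2 replicate 1 (0.032 and 0.039) and without spr double replicate 2 (0.044 and 0.017). The JIP3 adaptor gene unc-16, which joins kinesin to its cargo, ranged from 72.1 to 129.3 CPM, with pairwise log2 fold changes of -0.15 to 0.15. It shares 379 exon bases with ZK1098.11 on the same strand, so reads there could be split or dropped.

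Because the spr double is set against N2 and the triple strain against daf-2, the loss of the spr genes was measured in 2 backgrounds that share no library. Across the 34 genes the 2 sets of log2 fold changes had a Pearson r of -0.12 and a Spearman rho of -0.23, and 12 of 34 genes (35.3%) had the same sign. Over all 18342 tested genes r was 0.22, rho 0.17 and the share of equal signs 53.5%. Genes past the threshold in both backgrounds numbered 0 of the 34 and 656 of all tested. For the loss of daf-2 function, measured against N2 and in the triple strain against the spr double, r was 0.08 and rho -0.12 over the 34 genes (47.1% of equal sign), against 0.37, 0.28 and 59% over all genes, with rimb-1 and cla-1 past the threshold in both. These are descriptions across genes, which share libraries and scaling and are not replicates.

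The test of the difference itself, the interaction, passed for ric-4 (-1.09 ± 0.30, adjusted p = 0.035), unc-18 (-0.62 ± 0.17, adjusted p = 0.037) and unc-13 (-1.10 ± 0.31, adjusted p = 0.041). For ric-4 the spr effect was 0.06 ± 0.21 in the N2 background and -1.03 ± 0.21 in the daf-2 background. For unc-18 it was 0.02 ± 0.12 against -0.60 ± 0.12, and for unc-13 0.71 ± 0.22 against -0.39 ± 0.22. Without spr double replicate 2 the adjusted p values were 0.022, 0.049 and 0.03.

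Each of the 3 calls was lost under several alternatives. For ric-4 it was lost without N2 replicate 1 or 3, any daf-2 library, spr double replicate 1 or 3 or triple strain replicate 2 or 3 (adjusted p = 0.058 to 0.096) and with the digit of the library name as a term (0.054). For unc-18 it was lost without N2 replicate 1 or 3, any daf-2 library, spr double replicate 1 or 3 or triple strain replicate 1 or 2 (0.069 to 0.09), with DESeq2 size factors (0.051) and with no filter (0.095). For unc-13 it was lost without N2 replicate 1 or 3, daf-2 replicate 1 or 2, spr double replicate 1 or 3 or triple strain replicate 2 or 3 (0.066 to 0.11) and with the digit as a term (0.069). Their log2 values stayed between -1.13 and -0.56 in all of those left-out fits. Next in order were rbf-1 (1.04 ± 0.32, adjusted p = 0.052), unc-116 (0.62 ± 0.19, adjusted p = 0.056) and unc-104 (-0.82 ± 0.26, adjusted p = 0.057), each of which passed with DESeq2 (0.019, 0.015 and 0.037). With DESeq2, syd-1 (1.02, adjusted p = 0.03), nlg-1 (-1.47, 0.045) and cpx-1 (-1.28, 0.047) passed too, where edgeR gave 0.072, 0.086 and 0.095. Without spr double replicate 2, rbf-1 (1.26, adjusted p = 0.017), unc-116 (0.75, 0.016), syd-1 (1.13, 0.041) and snt-1 (-0.91, 0.046) passed.

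**Figure D4:**
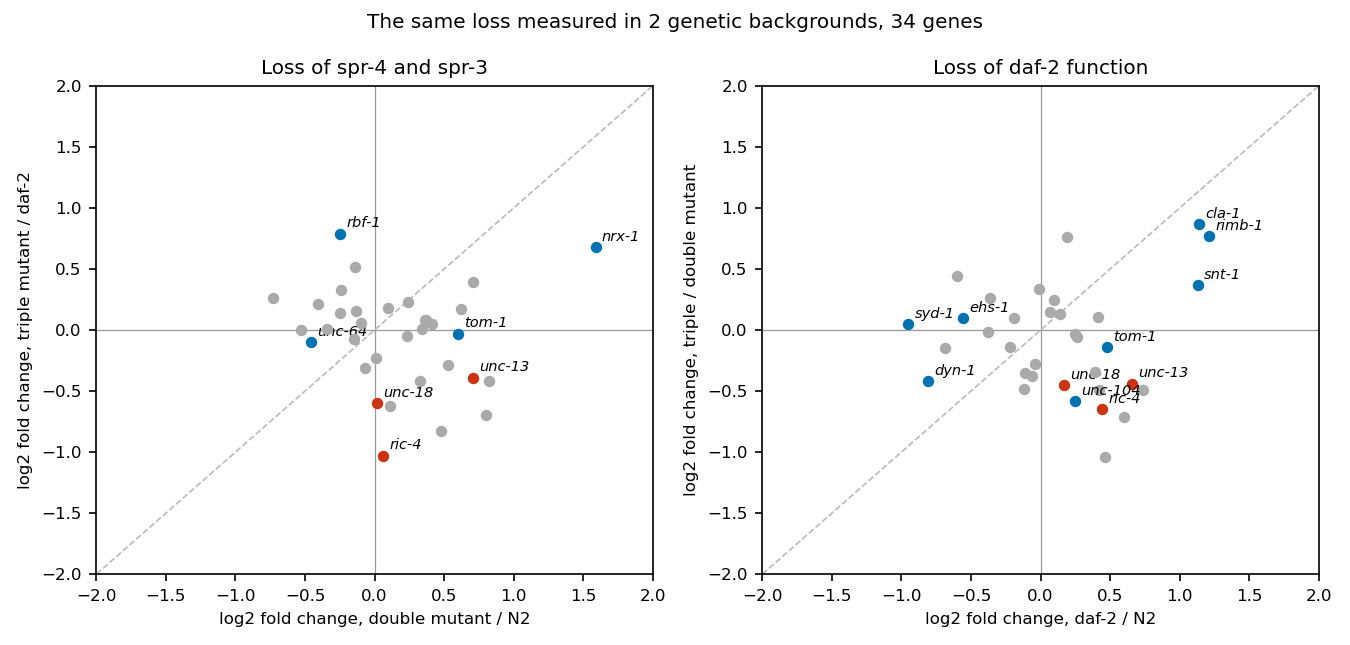
Log2 fold changes of the 34 tested genes for the same genetic loss in 2 backgrounds, with the loss of spr-4 and spr-3 at left (spr double against N2, horizontal, and triple strain against daf-2, vertical) and the loss of daf-2 function at right (daf-2 against N2, horizontal, and triple strain against spr double, vertical). Red points passed the interaction test, blue points passed in a comparison of that panel, grey points passed in neither, and the dashed line marks equal effects, from which ric-4 (0.06 against -1.03) lies far and cla-1 (1.14 against 0.87) and rimb-1 (1.21 against 0.77) lie near.

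The genes also share features that played no part in their choice. They lie on all 6 chromosomes, with 8 on X, 6 each on II and V and 5 each on I, III and IV. Their exons cover 804 to 27088 bases, with a median of 3354 against 1282 for all tested protein-coding genes, and 38.2% of the tested ones exceed 4 kb, against 4.5% of protein-coding genes. Of the 13 tested genes over 4 kb, the comparison of daf-2 with N2 called 4 higher and 0 lower, and 3 were higher and 0 lower in the spr double and in the triple strain against N2. Of the 13 between 2 and 4 kb, 0 were higher in these comparisons and 3, 1 and 4 lower. All 3154 protein-coding genes of that length had median log2 fold changes of 0.08, 0.12 and 0.08, with 13.3%, 6.31% and 13.9% higher and 11.7%, 5.42% and 10.7% lower. Over all 753 protein-coding genes above 4 kb the median log2 fold change was 0.16, 0.12 and 0.16 in these comparisons, with 11.7%, 5.84% and 15.5% higher and 7.04%, 3.45% and 7.44% lower. The part of length in the rises of rimb-1, cla-1 and nrx-1, which exceed 1 on the log2 scale, was not tested. Of the 35 genes, 11 share exon bases with another annotated gene, among them 5 that passed somewhere (unc-64, rbf-1, cla-1, ehs-1 and nrx-1), and the cDNA kit does not mark the strand.

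Other genes of the same pathways, from lists written from general knowledge, also moved in both directions. Of all tested genes, 20.6% passed in daf-2 against N2, 13.4% in the triple strain against daf-2 and 11.7% in the spr double against N2. The shares were 14.9% in the triple strain against the spr double, 22.2% in the triple strain against N2 and 8.32% for the interaction. In daf-2 against N2, 8 of 20 transport genes and 2 of 23 SNARE relatives passed, above and below the share of all genes. Of 23 tested relatives of the SNARE and fusion proteins, 0 were higher and 2 lower for daf-2 against N2, 3 and 1 for the triple strain against daf-2, 2 and 3 in the spr double against N2, 1 and 3 in the triple strain against the spr double and 2 and 4 in the triple strain against N2. The gene nsf-1, for the ATPase that takes SNARE complexes apart, fell in daf-2 (-0.54 ± 0.15, adjusted p = 0.016) and in the triple strain against N2 (-0.59 ± 0.15, adjusted p = 0.0094). The CAPS gene unc-31, needed for dense core vesicle release, was 1.27 ± 0.31 higher in the triple strain than in N2 (adjusted p = 0.0075). For the interaction 0 of the 23 passed by edgeR, where 5 had an unadjusted p under 0.05, and 3 passed with DESeq2. The share of all tested genes at that unadjusted level was not computed.

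Of 23 further active zone and synapse formation genes, 2 were higher and 3 lower for daf-2 against N2, 2 and 0 for the triple strain against daf-2, 2 and 1 in the spr double against N2, 2 and 1 in the triple strain against the spr double, 4 and 2 in the triple strain against N2 and 1 and 1 for the interaction. The LAR receptor phosphatase gene ptp-3 was higher in the spr double than in N2 (1.30 ± 0.25, adjusted p = 0.0049) and in the triple strain than in daf-2 (2.25 ± 0.26, adjusted p = 7.1e-05). The neurabin gene nab-1 rose in the same comparisons (1.00 ± 0.17 and 0.68 ± 0.17, adjusted p = 0.0018 and 0.013). Between daf-2 and N2, rsy-1, a regulator of synapse formation, was higher in daf-2 (1.09 ± 0.21, adjusted p = 0.0013) and the kinase gene cdk-5 lower (-0.74 ± 0.15, adjusted p = 0.0016).

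Of 14 further endocytosis genes, 0 were higher and 2 lower for daf-2 against N2, 1 and 0 for the triple strain against daf-2, 0 and 2 in the spr double against N2, 0 and 1 in the triple strain against the spr double, 1 and 3 in the triple strain against N2 and 2 and 0 for the interaction. The recycling gene rme-1 fell in daf-2 (-1.01 ± 0.17, adjusted p = 0.00051). Of 20 further transport genes, 2 were higher and 6 lower for daf-2 against N2, 2 and 0 for the triple strain against daf-2, 0 and 2 in the spr double against N2, 2 and 3 in the triple strain against the spr double, 2 and 1 in the triple strain against N2 and 3 and 0 for the interaction. The scaffold gene jip-1 rose in daf-2 (1.39 ± 0.25, adjusted p = 0.00079) and unc-69, needed for axon growth and vesicle transport, fell (-0.89 ± 0.16, adjusted p = 0.00074).

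Of 22 genes for G protein, second messenger and channel control of release, 2 were higher and 1 lower for daf-2 against N2, 3 and 1 for the triple strain against daf-2, 1 and 2 in the spr double against N2, 5 and 0 in the triple strain against the spr double, 3 and 0 in the triple strain against N2 and 4 and 0 for the interaction. In the triple strain against daf-2 the adenylyl cyclase gene acy-1 (1.56 ± 0.20, adjusted p = 0.00012) and the Trio gene unc-73 (1.01 ± 0.17, adjusted p = 0.0013) rose. For the interaction the Gq gene egl-30 (1.30 ± 0.33, adjusted p = 0.023) and the Gs gene gsa-1 (1.05 ± 0.26, adjusted p = 0.02) were positive, where ric-4, unc-18 and unc-13 were negative.

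Neuronal markers outside the 35 genes gave 1 higher and 2 lower of 14 for daf-2 against N2, 0 and 2 for the triple strain against daf-2, 1 and 0 in the spr double against N2, 0 and 1 in the triple strain against the spr double, 0 and 1 in the triple strain against N2 and 0 and 1 for the interaction. Their median log2 fold changes ran from -0.13 to 0.07. Among them egl-3, the proprotein convertase of neuropeptides, was negative for the interaction (-0.75 ± 0.21, adjusted p = 0.034). Of 11 muscle markers, 2 were higher and 0 lower for daf-2 against N2, 1 and 0 for the triple strain against daf-2, 1 and 3 in the spr double against N2, 4 and 0 in the triple strain against the spr double, 2 and 0 in the triple strain against N2 and 3 and 0 for the interaction. Of 12 intestinal markers the counts in the same order were 0 and 6, 1 and 2, 0 and 4, 1 and 6, 0 and 8, and 3 and 1, with a median log2 value of 1.05 for the interaction. For the 14 germline, oocyte and embryo markers the interaction passed for 4 in the positive and 0 in the negative direction. The part of these tissues in the differences of genes that also work outside neurons, such as dyn-1, and in the interaction calls was not tested.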

How the data were processed

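RNA of whole worms was made into cDNA with SMART-Seq v4 reagents from small amounts and read as paired ends, per the labels' protocols. Per the submitters' processing notes, the authors used STAR (version not given) and featureCounts 1.5.1 with WBcel235, and the deposited table holds raw counts per gene, without normalization. The annotation used for counting, its strand option and the rule for multiply matching reads are not stated in the labels. Symbols came from a table of gene identifiers, and coordinates and exon lengths from Ensembl release 115 (WBcel235).

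Genes with enough counts (filterByExpr, minimum count 10, minimum total 15) numbered 18342. They were fitted with edgeR 4.0.16 (R 4.3.3) on all 12 libraries with a mean per genotype, TMM scaling and a robust quasi-likelihood F-test, and Benjamini-Hochberg adjustment ran over every gene in the fit. Each standard error is the size of the log2 fold change over the root of its F value. The common biological coefficient of variation was 0.291, and the median over the 34 tested genes was 0.188. The fit was tested on simulated data. Alternatives were DESeq2 1.42.0, its size factors, library totals, no filter, the replicate number as a block, the last digit of the library names as a term (its meaning is not given), a fit of only the genotypes compared, and leaving out each library. Named genes are all 35 members, and other genes only if listed and past the threshold (at most 6 per list and comparison). The members and lists were chosen with earlier results of these data known. Nothing in the labels says that replicates came from separate cultures, so p-values measure the spread between these libraries, which may be technical. Columns of other samples numbered 0.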

Additional observations from a re-analysis of the deposited data

Results flagged for a closer look

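For 3 genes the effect of losing spr-4 and spr-3 differed between the daf-2 and the N2 background by the test of that difference. The interaction was -1.09 for ric-4 (SNAP-25), -0.62 for unc-18 (Munc18) and -1.10 for unc-13 (Munc13) on the log2 scale (edgeR adjusted p = 0.035, 0.037 and 0.041). Each of these calls is lost when one of 8 or 9 of the 12 libraries is left out. Groups of 3 libraries are too small to test for a single outlying library.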

How the results depend on the processing

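Of 31 calls, 12 held under every alternative, 19 were lost without some library, 18 under some other alternative, and 0 reversed. Counts of genes past the threshold moved by over 1.5 times as follows. In daf-2 against N2, higher genes went from 5 to 3 with DESeq2 size factors and lower genes from 3 to 5 with DESeq2. In the triple strain against daf-2, higher genes went from 1 to 3 with no filter and with DESeq2, and to 2 with the library name digit or only those genotypes. In the spr double against N2, higher genes went from 3 to 12 with library totals and 1 with only those genotypes, and lower genes from 1 to 3 with DESeq2 size factors or DESeq2, 2 with the digit, and 0 with library totals or only those genotypes. In the triple strain against the spr double, higher genes went from 2 to 0 with library totals and 1 with only those genotypes, and lower genes from 3 to 8 with library totals, 1 with no filter or the digit, and 0 with only those genotypes. In the triple strain against N2, library totals gave 7 higher and 1 lower instead of 4 and 4. For the interaction, higher genes went from 0 to 2 with no filter and 3 with DESeq2, and lower genes from 3 to 13 with library totals, 6 with DESeq2 and 1 with the digit. Library totals take no account of composition; the cause of the other shifts was not tested. At an unadjusted edgeR p under 0.05, 13 of the 34 genes passed for the interaction. The share of all tested genes at that level was not computed, so this count does not set the 34 genes apart. Over all tested genes, library totals gave 2925 higher and 1237 lower instead of 1757 and 2013 in daf-2 against N2, 4034 and 541 instead of 930 and 1212 in the spr double against N2, 2679 and 1458 instead of 1987 and 2081 in the triple strain against N2, 818 and 2606 instead of 1287 and 1452 between the triple strain and the spr double, and 466 and 2784 instead of 897 and 629 for the interaction. Fits of only the genotypes compared gave 373 and 569 in the spr double against N2 and 878 and 923 between the triple strain and the spr double. For the interaction DESeq2 gave 1353 and 976, and no filter gave 1259 and 954.

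Leaving out 1 library at a time gave 3 to 5 higher and 2 to 4 lower in daf-2 against N2, 0 to 2 and 2 to 2 in the triple strain against daf-2, 1 to 6 and 0 to 3 in the spr double against N2, 0 to 2 and 0 to 5 in the triple strain against the spr double, 3 to 5 and 1 to 5 in the triple strain against N2, and 0 to 3 and 0 to 4 for the interaction. Calls over all tested genes moved too. In the same order they ran from 1160 to 1832 and 1471 to 2319, then 711 to 1467 and 684 to 1403. Next came 400 to 1181 and 565 to 1991, then 741 to 1736 and 875 to 1613. The last were 1417 to 2046 and 1536 to 2298, and for the interaction 507 to 1576 and 272 to 958. The highest of these all came without spr double replicate 2.

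No pairing by replicate number showed in the deviations. Of 18 same-number pairs, 0 correlated above 0.1 (-0.067 to 0.064), and 3 of 12 libraries correlated best with their own number. This cannot tell whether same-number libraries were grown or prepared together, which the labels do not say. With the replicate block, lower genes went from 1 to 0 in the spr double against N2, from 3 to 1 in the triple strain against the spr double and from 3 to 1 for the interaction. It ended the calls of tom-1 in daf-2 (adjusted p = 0.063), rbf-1 in the triple strain against daf-2 (0.051), unc-64 in the spr double (0.055), ric-4 and unc-104 in the triple strain against the spr double (0.061 and 0.067), syd-1 in the triple strain against N2 (0.052) and ric-4 and unc-18 for the interaction (0.051 and 0.064). It brought nrx-1 in the triple strain against daf-2 (0.045), rimb-1 in the spr double (0.036) and elks-1 in the triple strain against N2 (0.047) past the threshold.

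Depth limits sng-1, snn-1, nlg-1, snt-3 and cpx-1, with 360 to 1079 counts each over all libraries, and leaves cpx-2 untested.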
